A study of Mus musculus with 12 samples.

Results

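The T cell and NK cell genes described here are Cd3e, Cd3g, Cd4, Cd8a, Klrd1, Nkg7, Prf1, Gzma, Gzmb and Foxp3, 10 of the 28116 gene symbols in the expression table. They were matched by symbol, and all 10 were found. The 4 groups were injected with anti-miR106b, an inhibitor of the microRNA miR-106b, given with the cardiotoxin, and collected at day 7; with the anti-miR-Scrambled control (here scrambled), day 7; with anti-miR106b, day 3; and with the scrambled control, day 3. Each group had 3 animals. Every muscle, controls included, was a tibialis anterior of a 4-month-old mdx mouse (strain C57BL/10ScSn-Dmdmdx/J), which lacks functional dystrophin, and every muscle had received cardiotoxin, a snake venom toxin that kills muscle fibres and starts regeneration. There was no uninjured and no dystrophin-sufficient group, and RNA came from whole muscle, so each value is a level in the mixed tissue and not in sorted lymphocytes.

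T cells recognise antigen through a receptor whose signal is carried by the CD3 chains, and the coreceptors CD4 and CD8 mark helper and cytotoxic T cells. Natural killer (NK) cells and cytotoxic T cells share a granule store of perforin and granzymes, while Foxp3 marks regulatory T cells. In injured and dystrophic mouse muscle these cells are a small part of an infiltrate that consists mostly of macrophages, and regulatory T cells are known there for promoting repair.

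The libraries held 28857739 to 42825246 reads, and 1 read equalled 0.0213 to 0.0356 CPM, the usual read count scaled to library size. Most members were near the lower end of what this depth shows, so reads are given beside log2 CPM values, and errors are SD over 3 animals. Replicate 1 of scrambled day 7 stood apart most: it had the lowest level of its group in 9 of the 10 members, and results that rest on it are given with and without it. This was not particular to the members, since Ptprc, a gene of nearly all leukocytes, was lowest there too (2.81 log2 CPM against 3.27 and 3.52). In anti-miR106b day 3 muscle, replicate 2 was lowest in 7 members and replicate 1 highest in 7. Differences were tested with limma over all 12 libraries, and a gene counts as changed at a Benjamini-Hochberg adjusted p below 0.05, adjusted over the 16053 symbols that averaged at least 10 reads. Foxp3 fell under that minimum and the other 9 members passed it.

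The sequences shown are those of the inhibited microRNA, its possible sites in the members, and the promoters of the 4 members that are granule genes. All 4 were lower at day 7 than at day 3 with anti-miR106b, Prf1 only just (adjusted p = 0.0493, limma). Cd3g, Cd4, Cd8a and Klrd1 were lower too, while Gzmm, a granule gene outside the members, was higher. Whether any of these sequences bears on the changes was not tested. The mature miR-106b-5p (RefSeq, GRCm38.p6, minus strand of chr5:138165787-138165807) is shown 5′ to 3′ with its seed, bases 2 to 8, in capitals.
miR-106b-5p: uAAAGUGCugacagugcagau
No member carried the 7-base match to this seed, GCACTTT, in its 3′ UTR in the GENCODE annotation, while 14.1% of 13940 tested genes with a 3′ UTR did. The 8-base match, GCACTTTA, was found in none of the members and in 4.35% of those genes. The shorter 6-base match, CACTTT, which 41.0% of genes hold, was found once in Cd4 and once in Cd8a. These stretches are shown on the transcript strand with the match in capitals; they start at base 609 of the 1553-base Cd4 3′ UTR and at base 1061 of the 2306-base Cd8a 3′ UTR, counted from the base after the stop codon.
Cd4 3′ UTR stretch: tcataagcCACTTTaatgtccc
Cd8a 3′ UTR stretch: gaatttcaCACTTTagtgttaa
A match is a string of letters and does not show that miR-106b binds there.

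RefSeq promoters of 300 bases around the start site were at hand for 8 of the 10 members; Cd4 and Klrd1 had none in the table. They were searched on both strands for 5 motifs: the RUNX core TGTGGT, the T-box site GGTGTGA, the CRE core TGACGT, the AP-1 site TGANTCA and the ETS core GGAAGT. RUNX factors, Runx3 among them, are known in mice for their part in the cytotoxic programme. The RUNX core was present in the promoters of all 4 granule genes, Gzma, Gzmb, Prf1 and Nkg7, and absent from those of Cd3e, Cd3g, Cd8a and Foxp3; 16.8% of 32851 promoters hold it. No RUNX core in these promoters overlapped another of the motifs. The 4 granule promoters are printed 5′ to 3′ on the strand of the gene, with the RUNX core on either strand in capitals. They lie at chr13:113100932-113101231 (minus strand, Gzma), chr14:56262285-56262584 (minus strand, Gzmb), chr10:61297586-61297885 (plus strand, Prf1) and chr7:43436888-43437187 (plus strand, Nkg7) of GRCm38.p6. Counted from the start site, the cores begin at base -50 in Gzma, at -93 and -34 in Gzmb, at -130 in Prf1 and at -83 in Nkg7.
Gzma promoter: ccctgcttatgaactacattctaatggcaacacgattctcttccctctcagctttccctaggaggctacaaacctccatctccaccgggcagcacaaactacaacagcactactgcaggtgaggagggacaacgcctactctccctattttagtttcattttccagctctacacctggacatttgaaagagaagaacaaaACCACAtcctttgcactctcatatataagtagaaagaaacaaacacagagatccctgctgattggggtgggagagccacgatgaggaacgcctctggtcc
Gzmb promoter: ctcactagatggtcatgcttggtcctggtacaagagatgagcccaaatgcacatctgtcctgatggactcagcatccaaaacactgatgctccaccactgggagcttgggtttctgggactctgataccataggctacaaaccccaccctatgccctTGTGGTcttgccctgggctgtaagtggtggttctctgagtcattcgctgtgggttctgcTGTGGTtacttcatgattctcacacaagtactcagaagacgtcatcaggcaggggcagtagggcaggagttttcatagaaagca
Prf1 promoter: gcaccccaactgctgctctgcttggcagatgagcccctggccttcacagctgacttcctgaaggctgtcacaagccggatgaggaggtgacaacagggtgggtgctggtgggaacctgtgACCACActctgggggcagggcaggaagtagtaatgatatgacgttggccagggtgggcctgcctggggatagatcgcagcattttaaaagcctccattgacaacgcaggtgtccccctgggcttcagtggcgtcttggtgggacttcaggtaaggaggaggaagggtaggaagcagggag
Nkg7 promoter: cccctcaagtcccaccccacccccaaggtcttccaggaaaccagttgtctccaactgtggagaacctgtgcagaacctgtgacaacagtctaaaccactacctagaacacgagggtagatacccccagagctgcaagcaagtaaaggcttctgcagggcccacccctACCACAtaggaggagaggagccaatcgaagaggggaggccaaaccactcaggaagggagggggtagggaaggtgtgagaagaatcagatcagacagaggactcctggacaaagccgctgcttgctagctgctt
The T-box site occurred in the Nkg7 promoter only, against 3.98% of all promoters, and the CRE core in those of Cd3e, Gzmb and Prf1, against 7.51%. The AP-1 site was present in Gzmb (7.81% of all promoters hold it) and the ETS core in Cd3e and Prf1 (23.8%).

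The 10 genes together gave 107, 133 and 127 reads in the anti-miR106b day 7 libraries, 81, 178 and 222 in the scrambled day 7 libraries, 1160, 829 and 791 in the anti-miR106b day 3 libraries, and 499, 459 and 439 in the scrambled day 3 libraries. Day 3 muscle therefore held several times more of these transcripts, and at day 3 the lowest anti-miR106b library was above the highest scrambled one. In whole tissue, fewer cells of a type and less RNA per cell cannot be told apart. Cd4 alone supplied 45.0% to 51.4% of the members' reads in anti-miR106b muscle at day 3, and 38.1% to 40.7% in scrambled muscle. At day 7 its share was 22.4% to 29.1% with anti-miR106b and 19.4% to 25.8% in scrambled muscle.

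**Figure D1:**
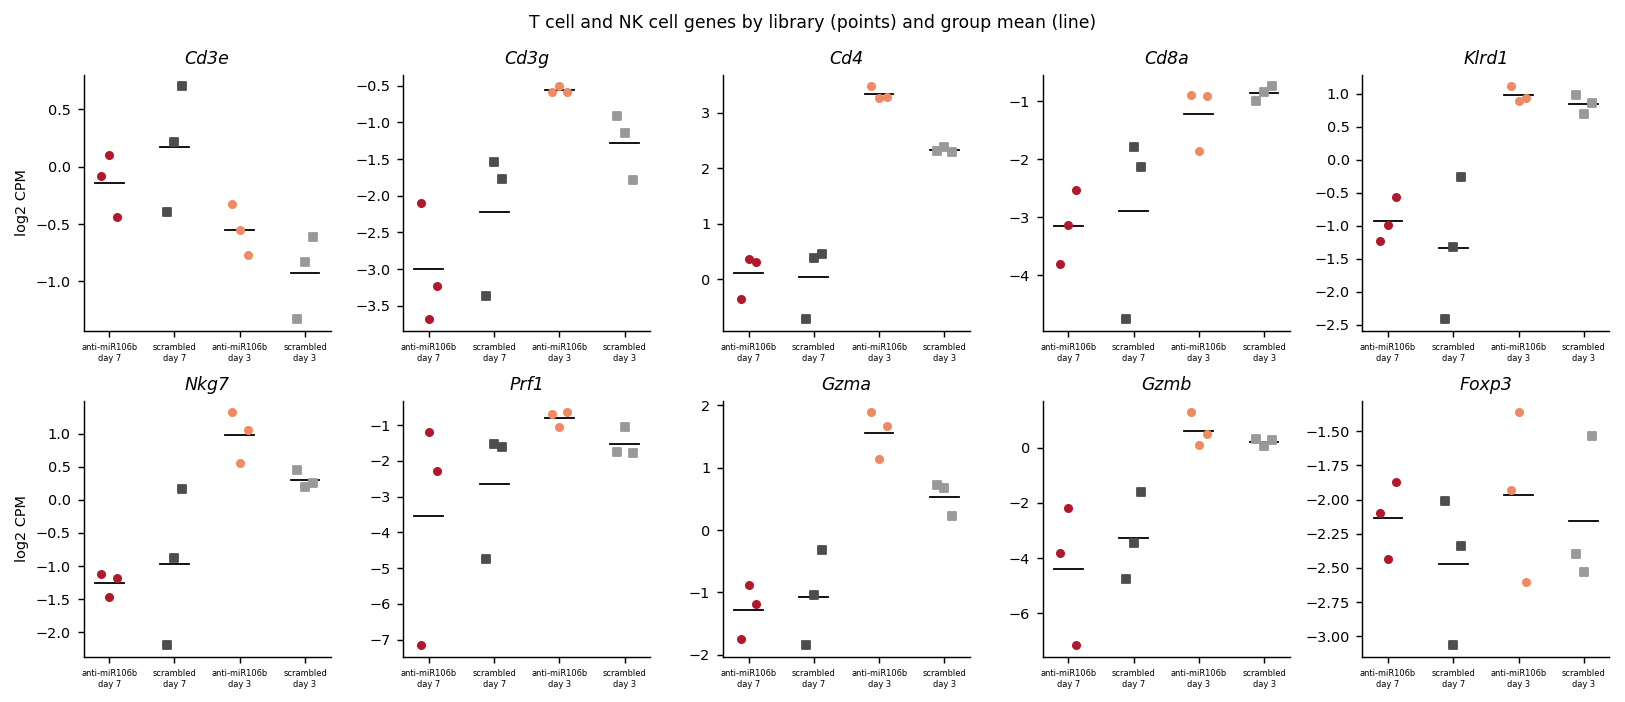
Level of each member (log2 CPM, vertical axis, scaled separately for each gene) in the 4 groups, with 1 point per library and a line at the group mean. Cd3e is the member whose scrambled day 7 libraries all lie above its scrambled day 3 libraries, and Foxp3 overlaps between all groups.

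The CD3 chains come first. Cd3e, the epsilon chain that every T cell receptor complex contains (chr9:44998740-45009627, minus strand, GRCm38, protein coding), had 29, 30 and 22 reads in anti-miR106b day 7 muscle and 25, 41 and 51 in scrambled day 7 muscle. It had 37, 30 and 22 reads in anti-miR106b day 3 muscle and 15, 20 and 23 in scrambled day 3 muscle. Its level averaged -0.14 ± 0.27 and 0.17 ± 0.55 log2 CPM at day 7, with anti-miR106b and scrambled, and -0.55 ± 0.22 and -0.92 ± 0.37 at day 3 in the same order. The groups with and without the inhibitor overlapped on both days, while the scrambled day 7 group lay wholly above the scrambled day 3 group. The antisense gene Gm48719 overlaps Cd3e on the other strand and had 1 to 8 reads per library. It was not stated whether reads were assigned by strand, so reads of the pair cannot be told apart.

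Cd3g, the gamma chain that pairs with epsilon (chr9:44969572-44980431, minus strand), lies close to Cd3e and Cd3d on the same chromosome. It had 7, 2 and 3 reads in anti-miR106b day 7 muscle and 3, 12 and 9 in scrambled day 7 muscle. The day 3 libraries gave 31, 31 and 25 reads with anti-miR106b and 20, 16 and 10 with scrambled. Both day 7 groups were thus lower than anti-miR106b day 3, while scrambled day 7 and scrambled day 3 overlapped after scaling. Mean levels were -3.00 ± 0.81 and -2.22 ± 0.99 log2 CPM at day 7 and -0.56 ± 0.045 and -1.29 ± 0.45 at day 3, anti-miR106b before scrambled.

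Among the coreceptors, Cd4 (chr6:124864692-124888221, minus strand), which marks helper T cells and in mice is also carried by some dendritic cells, had 24, 36 and 37 reads in anti-miR106b day 7 muscle and 20, 46 and 43 in scrambled day 7 muscle. At day 3 it had 522, 426 and 370 reads with anti-miR106b and 190, 187 and 173 with scrambled. It was the most heavily read member at day 3, its day 3 groups did not overlap with each other, and its day 7 groups overlapped. Mean levels were 0.11 ± 0.40 and 0.04 ± 0.65 log2 CPM at day 7 and 3.34 ± 0.12 and 2.33 ± 0.05 at day 3, anti-miR106b before scrambled.

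Cd8a, the alpha chain of the coreceptor of cytotoxic T cells (chr6:71373427-71379173, plus strand), had 2, 3 and 5 reads in anti-miR106b day 7 muscle and 1, 10 and 7 in scrambled day 7 muscle. It had 25, 12 and 20 reads in anti-miR106b day 3 muscle and 19, 20 and 21 in scrambled day 3 muscle. In contrast to Cd4, its mean at day 3 was no higher with the inhibitor, at -1.22 ± 0.55 log2 CPM with anti-miR106b and -0.85 ± 0.13 with scrambled, and these groups overlapped. At day 7 its means were -3.16 ± 0.64 and -2.89 ± 1.62 in the same order.

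Klrd1 encodes CD94, the partner chain of the NKG2 receptors of NK cells (chr6:129591782-129598775, plus strand). The day 7 libraries gave 13, 14 and 20 reads with anti-miR106b and 6, 14 and 26 with scrambled, and the day 3 libraries 101, 82 and 72 reads with anti-miR106b and 75, 58 and 64 with scrambled. The day 3 groups overlapped after scaling, at 0.98 ± 0.12 log2 CPM with anti-miR106b and 0.84 ± 0.14 with scrambled. The day 7 means were -0.93 ± 0.33 and -1.33 ± 1.07 in that order.

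The granule genes come next. Nkg7, a membrane protein of cytotoxic granules (chr7:43437073-43438249, plus strand), had 14, 10 and 13 reads in anti-miR106b day 7 muscle and 7, 19 and 35 in scrambled day 7 muscle; at day 3 it had 117, 65 and 79 with anti-miR106b and 52, 41 and 42 with scrambled. Gzma, granzyme A, a protease with trypsin-like specificity (chr13:113093825-113100981, minus strand), had 9, 15 and 13 reads in anti-miR106b day 7 muscle and 9, 17 and 25 in scrambled day 7 muscle, and at day 3 had 173, 98 and 120 with anti-miR106b and 63, 57 and 41 with scrambled. Both genes were higher in every anti-miR106b day 3 library than in any scrambled day 3 library, and both overlapped at day 7. Day 3 means were 0.98 ± 0.39 and 0.30 ± 0.13 log2 CPM for Nkg7, and 1.56 ± 0.38 and 0.54 ± 0.28 for Gzma, anti-miR106b before scrambled. The day 7 means were -1.26 ± 0.18 and -0.97 ± 1.18 for Nkg7, and -1.27 ± 0.44 and -1.07 ± 0.76 for Gzma.

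Gzmb, granzyme B, which cleaves caspases in target cells (chr14:56258838-56262260, minus strand), had few reads at day 7. It had 2, 6 and 0 reads in anti-miR106b day 7 muscle and 1, 3 and 10 in scrambled day 7 muscle, and at day 3 had 113, 47 and 53 with anti-miR106b and 47, 37 and 43 with scrambled. Over the 3 libraries of a group this is 0.0898 CPM (95% exact Poisson interval 0.0388 to 0.177) and 0.140 CPM (0.0764 to 0.234) at day 7, and 1.65 CPM (1.43 to 1.88) and 1.16 CPM (0.964 to 1.38) at day 3, anti-miR106b before scrambled. These Poisson intervals and floors cover counting error only, and the library without a read allows up to 3 reads, 0.0998 CPM. Prf1, perforin, the pore-forming protein (chr10:61297833-61304680, plus strand), had 0, 12 and 6 reads in anti-miR106b day 7 muscle and 1, 12 and 10 in scrambled day 7 muscle, and at day 3 had 29, 21 and 24 with anti-miR106b and 11, 17 and 10 with scrambled. Its day 3 groups just cleared each other, and its day 7 libraries ranged between levels like those of day 3 and no read at all. Means were -3.55 ± 3.17 and -2.64 ± 1.83 log2 CPM at day 7 and -0.80 ± 0.23 and -1.54 ± 0.41 at day 3, anti-miR106b before scrambled.

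Foxp3, the transcription factor of regulatory T cells (chrX:7573644-7595245, plus strand), was the least abundant member per length at day 3. It had 7, 5 and 8 reads in anti-miR106b day 7 muscle, 8, 4 and 6 in scrambled day 7 muscle, 12, 17 and 6 in anti-miR106b day 3 muscle, and 7, 6 and 12 in scrambled day 3 muscle. All groups overlapped, with means of -2.14 ± 0.28 and -2.47 ± 0.54 log2 CPM at day 7 and -1.96 ± 0.62 and -2.15 ± 0.54 at day 3, anti-miR106b before scrambled. When every symbol was tested without a read minimum, its adjusted p (limma) was 0.859 and 0.875 for anti-miR106b against scrambled at day 7 and day 3, and 0.820 and 0.671 for day 7 against day 3 in anti-miR106b and scrambled muscle. Foxp3 overlaps Flicr, Ppp1r3f and Ccdc22 in the annotation, so part of its few reads could belong to them.

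Per kilobase of exon, Cd3e headed the order at day 7, at 0.624 ± 0.116 CPM per kb with anti-miR106b and 0.804 ± 0.297 with scrambled, although its ranges overlapped those of the next gene in both groups. In scrambled day 7 muscle each gene overlapped the next throughout the order Cd3e, Nkg7, Gzma, Klrd1, Cd4, Cd3g, Gzmb, Prf1, Cd8a, Foxp3. With anti-miR106b the order was Cd3e, Klrd1, Nkg7, Gzma, Cd4, Cd3g, Prf1, Gzmb, Foxp3, Cd8a, and the only clear step was that between Cd4 and Cd3g. At day 3 Cd3e had rank 7 in both groups. Cd4 led in anti-miR106b day 3 muscle at 3.27 ± 0.28 CPM per kb, followed by Gzma, Nkg7 and Klrd1, each overlapping its neighbour, and then, in clear steps, by Gzmb, Cd3g, Cd3e, Prf1 and Cd8a. Klrd1 led in scrambled day 3 muscle at 1.85 ± 0.18, overlapping Cd4 at 1.61 ± 0.05. Foxp3 was last on day 3 in both groups, at 0.0647 ± 0.0274 and 0.0559 ± 0.0232 CPM per kb with anti-miR106b and scrambled, and it overlapped Cd8a with anti-miR106b but stood clear of Prf1 in scrambled muscle.

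Between day 3 and day 7 most of the cytotoxic and T cell transcripts fell, while Cd3e did not pass a test for a fall in either arm. In anti-miR106b muscle 8 of the 9 tested members were lower at day 7 than at day 3 and none was higher; over all tested genes 39.3% were lower and 35.1% higher. In scrambled muscle 6 were lower and Cd3e was higher, against 33.3% lower and 29.6% higher over all tested genes. Among genes averaging 10 to 200 reads, 41.2% were lower and 21.8% higher with anti-miR106b, and 32.4% were lower and 15.7% higher with scrambled. The median log2 fold change of the 10 members was -2.34 with anti-miR106b and -1.44 with scrambled, while the median of all tested genes was -0.05 and -0.01. The arms share no library, but they come from the same 12-library fit. Groups of the 2 days did not overlap for 8 members with anti-miR106b, all lower at day 7 (40.7% of all genes were lower in this way), and for 7 with scrambled, of which 6 were lower and 1 higher (36% and 32.1% of all genes).

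The steepest falls were those of Gzmb, at a log2 fold change of -5.00 ± 0.99 (SE) with anti-miR106b (adjusted p = 0.000354) and -3.49 ± 0.99 with scrambled (adjusted p = 0.00687). Because replicate 3 of anti-miR106b day 7 had no Gzmb read, the fitted value depends on the prior count, and without that library it was -3.61 (adjusted p = 0.000664). Cd4 fell by 3.23 ± 0.26 on the log2 scale with anti-miR106b, which is 9.41-fold, and by 2.29 ± 0.26 with scrambled, 4.87-fold. With anti-miR106b and scrambled, Gzma had log2 fold changes of -2.84 ± 0.35 and -1.61 ± 0.35, Klrd1 of -1.90 ± 0.39 and -2.17 ± 0.39, and Nkg7 of -2.24 ± 0.43 and -1.27 ± 0.43, all past the threshold. Cd8a fell by 1.94 ± 0.65 with anti-miR106b (adjusted p = 0.0146) and by 2.04 ± 0.65 with scrambled (adjusted p = 0.0140). Cd3g fell by 2.44 ± 0.51 with anti-miR106b (adjusted p = 0.00059), and its value in scrambled muscle, -0.94 ± 0.51, missed the threshold (adjusted p = 0.126). Prf1 barely passed with anti-miR106b, at -2.75 ± 1.19 (adjusted p = 0.0493), and did not with scrambled, at -1.10 ± 1.19 (adjusted p = 0.439).

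Some of these calls rested on single libraries or on a setting. The Nkg7 call in scrambled muscle was lost with quantile normalization (adjusted p = 0.0680) and when only its groups were fitted (0.0534). The Prf1 call in anti-miR106b muscle was lost with no read minimum (adjusted p = 0.0595), with quantile normalization (0.0819), with no trend in the prior variance (0.0887) and when only its groups were fitted (0.0582). Without replicate 1 of scrambled day 7, Cd8a in scrambled muscle had a log2 fold change of -1.11 (adjusted p = 0.0525) and Nkg7 one of -0.66 (adjusted p = 0.0844), and Nkg7 was also lost without replicate 1 of scrambled day 3 (adjusted p = 0.0576). In anti-miR106b muscle Cd8a was lost without replicate 1 or 3 of day 3 (adjusted p = 0.0506 and 0.0504) or replicate 1 of day 7 (0.0585). Prf1 was lost without replicate 1 of anti-miR106b day 7, the library with no Prf1 read, which left -0.94 (adjusted p = 0.291). It was also lost without replicates 1 to 3 of anti-miR106b day 3 (adjusted p = 0.0988, 0.0790 and 0.103), replicates 1 to 3 of scrambled day 3 (0.0595, 0.0590 and 0.0600) or replicate 2 of scrambled day 7 (0.0544).

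**Figure D2:**
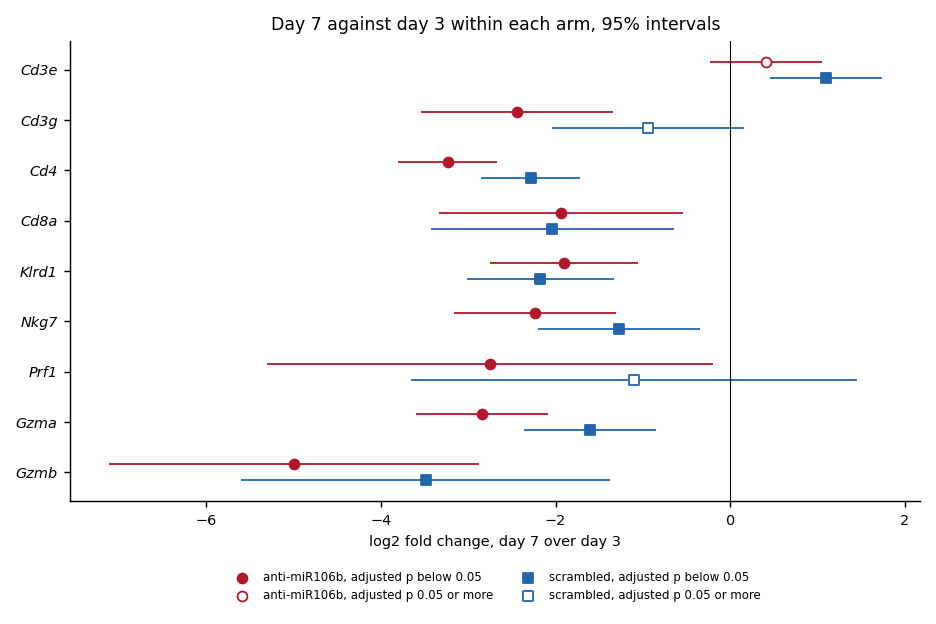
Log2 fold change of day 7 over day 3 (horizontal axis) for the 9 tested members, with anti-miR106b as circles above scrambled as squares, and bars for 95% intervals of the limma fit. Filled symbols have an adjusted p below 0.05; Cd3e is the one gene to the right of 0 in both arms, though with total reads as library size it lies at -0.21 with anti-miR106b.

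Cd3e was 2.14-fold higher at day 7 than at day 3 in scrambled muscle (log2 fold change 1.10 ± 0.30, adjusted p = 0.00533, limma). In anti-miR106b muscle its value was 0.41 ± 0.30 (adjusted p = 0.222). These values depend on how libraries are scaled. The authors' size factors differed between days, and with plain total reads as library size the median of all genes moved to -0.67 with anti-miR106b and -0.42 with scrambled. On that scale Cd3e was at -0.21 with anti-miR106b (adjusted p = 0.547) and at 0.69 with scrambled (adjusted p = 0.0619), while Cd3g in scrambled muscle was at -1.33 (adjusted p = 0.0344). Quantile normalization moved the median of all genes to 0.13 in both arms and gave Cd3e 0.85 with anti-miR106b (adjusted p = 0.0156) and 1.47 with scrambled (adjusted p = 0.000487). Over all genes, total reads turned 5628 higher and 6313 lower calls with anti-miR106b into 2280 and 10558, and 4747 higher and 5344 lower calls with scrambled into 1547 and 9201. With quantile normalization they were 6953 and 5230 with anti-miR106b and 6338 and 4275 with scrambled.

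The difference between Cd3e and the other CD3 genes within a library does not depend on library size. Cd3e exceeded Cd3g by 2.86 ± 0.88 log2 units in anti-miR106b day 7 muscle and by 2.40 ± 0.61 in scrambled day 7 muscle. At day 3 the difference was 0.01 ± 0.22 with anti-miR106b and 0.36 ± 0.80 with scrambled. Every day 7 library lay above every day 3 library in this difference. Cd247, the zeta chain that also signals for NK cell receptors, was like Cd3e: it had 60, 38 and 38 reads in anti-miR106b day 7 muscle, 74, 68 and 55 in scrambled day 7 muscle, 49, 42 and 38 in anti-miR106b day 3 muscle and 39, 52 and 28 in scrambled day 3 muscle. It was higher at day 7 by 0.58 ± 0.23 with anti-miR106b (adjusted p = 0.0355) and by 0.89 ± 0.23 with scrambled (adjusted p = 0.00412), but with total reads these were -0.04 (adjusted p = 0.872) and 0.48 (adjusted p = 0.0793). The call with anti-miR106b was lost without any of the 3 anti-miR106b day 3 libraries (adjusted p = 0.0565, 0.0882 and 0.0690 without replicates 1 to 3) and without replicate 1 of anti-miR106b day 7 (0.161).

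Cd3d, the delta chain, was like Cd3g. It had 1, 2 and 7 reads in anti-miR106b day 7 muscle, 1, 5 and 2 in scrambled day 7 muscle, 40, 16 and 25 in anti-miR106b day 3 muscle and 10, 11 and 12 in scrambled day 3 muscle. It fell by 2.72 ± 0.66 on the log2 scale with anti-miR106b (adjusted p = 0.00184) and by 2.07 ± 0.66 with scrambled (adjusted p = 0.0136, and 0.0570 without replicate 1 of scrambled day 7). Trac, the constant region of the receptor alpha chain, fell by 2.03 ± 0.48 with anti-miR106b (adjusted p = 0.00148) and by 1.27 ± 0.48 with scrambled (adjusted p = 0.0314). That scrambled call was lost with quantile normalization (adjusted p = 0.0984), without any of the 3 scrambled day 3 libraries (adjusted p = 0.0861, 0.0515 and 0.0679 without replicates 1 to 3) and without replicate 2 of scrambled day 7 (0.105). Trbc2, a beta chain constant region, fell by 2.23 ± 0.61 with anti-miR106b (adjusted p = 0.00402) and by 2.28 ± 0.61 with scrambled (adjusted p = 0.00458). Of the 12 listed genes of the T cell receptor and CD3 complex, 8 were tested, and 6 of them were lower and 1 higher at day 7 with anti-miR106b, against 3 lower and 2 higher with scrambled. Over all tested genes 39.3% were lower and 35.1% higher with anti-miR106b, and 33.3% were lower and 29.6% higher with scrambled. The scrambled counts were thus near the share of all genes. Trbc1, the other beta chain constant region, was at -1.21 ± 0.48 with anti-miR106b (adjusted p = 0.0343) and at -0.55 ± 0.48 with scrambled (adjusted p = 0.334). The anti-miR106b call of Trbc1 was lost with quantile normalization (adjusted p = 0.125), without replicates 1 to 3 of anti-miR106b day 3 (0.0827, 0.0618 and 0.0694) and without replicate 2 or 3 of anti-miR106b day 7 (0.136 and 0.0764). Trdc, the constant region of the gamma-delta T cell receptor, was at -0.69 ± 0.25 with anti-miR106b (adjusted p = 0.0225, and 0.454 with quantile normalization) and at 0.01 ± 0.25 with scrambled (adjusted p = 0.964). The anti-miR106b call of Trdc was lost without replicate 2 of anti-miR106b day 3 (adjusted p = 0.123) or replicate 1 or 3 of anti-miR106b day 7 (0.0645 and 0.0587). Differences between these genes were not tested.

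**Figure D3:**
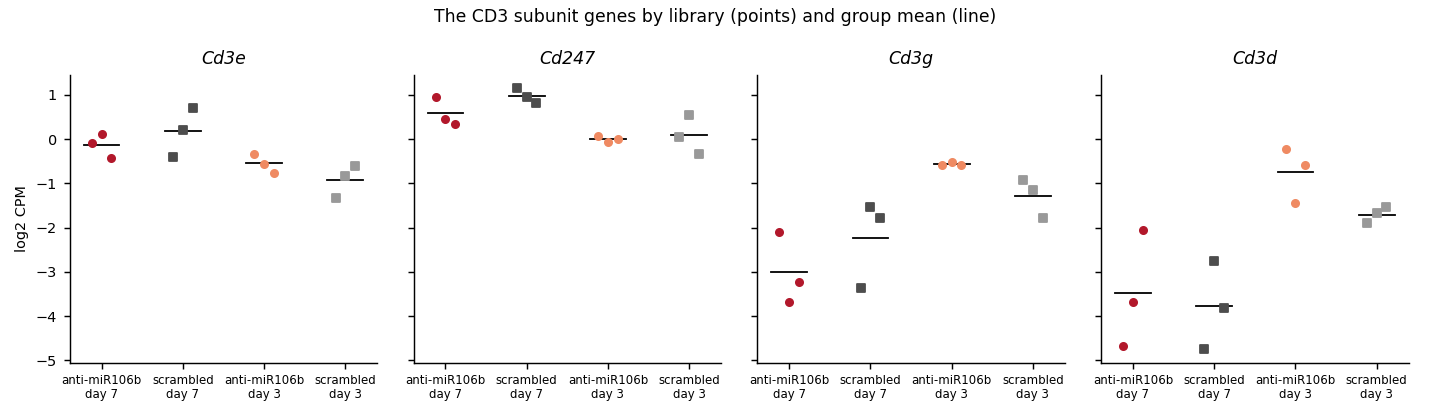
Levels (log2 CPM, 1 shared vertical axis) of the CD3 subunit genes by group, 1 point per library and a line at the group mean. The day 7 libraries of Cd3e and Cd247 lie at or above most of their day 3 libraries, and those of Cd3g and Cd3d lie mostly below theirs.

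All 10 general leukocyte genes tested were lower at day 7 in both arms, so the members were also set against Ptprc, which encodes CD45 and is carried by nearly all leukocytes. Ptprc had 10.6 and 9.33 CPM over the libraries of anti-miR106b and scrambled day 7 muscle and 91.1 and 74.0 CPM over those of anti-miR106b and scrambled day 3 muscle. Its log2 fold change at day 7 was -3.13 ± 0.16 with anti-miR106b and -3.01 ± 0.16 with scrambled. Relative to Ptprc, Cd3e was at -3.51 ± 0.53 and -3.02 ± 0.19 log2 units at day 7 and at -7.06 ± 0.21 and -7.13 ± 0.44 at day 3, anti-miR106b before scrambled. Klrd1 was at -4.30 ± 0.43 and -4.53 ± 0.72 at day 7 and at -5.53 ± 0.09 and -5.36 ± 0.03 at day 3, and Foxp3 was at -5.51 ± 0.14 and -5.67 ± 0.77 at day 7 and at -8.47 ± 0.65 and -8.36 ± 0.52 at day 3. Relative to Ptprc, these 3 genes and also Cd3g and Nkg7 were higher in every day 7 library than in any day 3 library. This order was not particular to lymphocyte genes, because the macrophage gene Csf1r showed it too. Csf1r relative to Ptprc was at 2.17 ± 0.16 and 2.33 ± 0.08 at day 7 and at 1.92 ± 0.07 and 1.74 ± 0.16 at day 3, anti-miR106b before scrambled. Cd4 relative to Ptprc was at -3.27 ± 0.63 and -3.16 ± 0.33 at day 7 and -3.17 ± 0.09 and -3.88 ± 0.15 at day 3, anti-miR106b before scrambled. Its anti-miR106b groups overlapped between the days, while its scrambled day 7 libraries all lay above its scrambled day 3 libraries. Gzmb spread from -10.7 to -5.21 at day 7 with anti-miR106b and from -7.56 to -5.14 with scrambled, overlapping its day 3 values. These ratios are descriptions and were not tested.

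**Figure D4:**
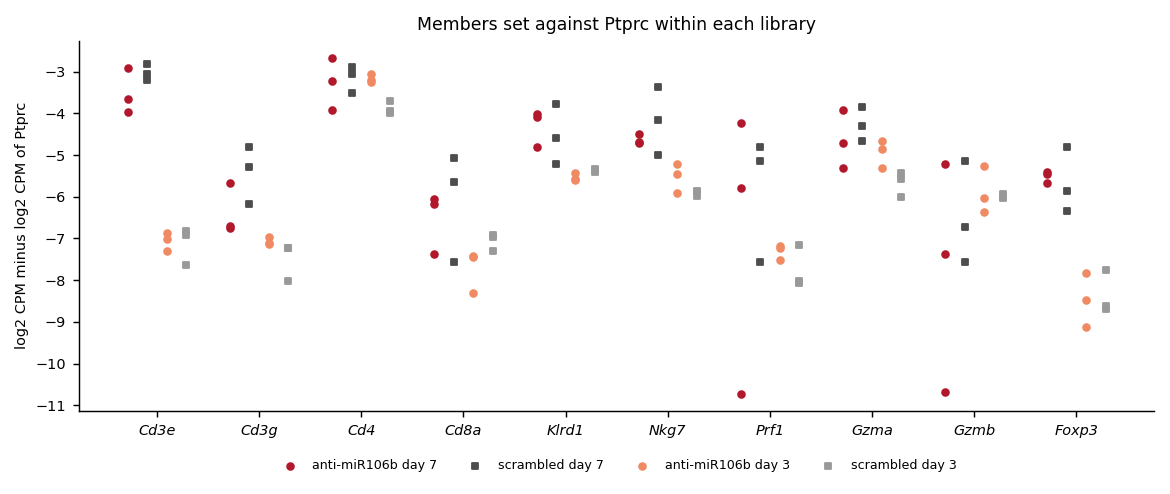
Log2 CPM of each member minus that of Ptprc in the same library (vertical axis), with the 4 groups side by side from anti-miR106b day 7 at the left to scrambled day 3 at the right of each gene, 1 point per library. Cd3e, Cd3g, Klrd1, Nkg7 and Foxp3 lie higher in all day 7 libraries than in all day 3 libraries, and Cd4 does not.

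At day 3 the inhibitor was accompanied by higher Cd4 and Gzma and by no detectable difference in the other 7 tested members. Of all tested genes 13.9% were higher and 17.1% lower with anti-miR106b, and among genes that averaged 10 to 200 reads per library, as the 9 tested members did, 5.98% were higher and 7.92% lower. Cd4 was 2.02-fold higher (log2 fold change 1.01 ± 0.26 SE, adjusted p = 0.0102, limma), higher in each anti-miR106b library than in any scrambled one. Gzma was 2.04-fold higher (1.03 ± 0.35, adjusted p = 0.0393). Of the 10 members 9 had a positive value, with a median of 0.54 against 0.01 over all tested genes, and 5 of them, Cd3g, Cd4, Gzma, Prf1 and Nkg7, did not overlap between the groups (29% of all genes were higher without overlap).

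The Cd4 call held under each scaling, weighting and filter tried and without any single library, where its adjusted p reached at most 0.0411. The Gzma call was lost without replicate 1 or 3 of anti-miR106b day 3 (adjusted p = 0.141 and 0.105) and without any of the 3 scrambled day 3 libraries (adjusted p = 0.0582, 0.0774 and 0.142 for replicates 1 to 3). It was also lost when no read minimum was set (adjusted p = 0.0588) and when the prior variance had no trend (adjusted p = 0.0619). Nkg7, at 0.68 ± 0.43 (adjusted p = 0.251), and Cd3g, at 0.73 ± 0.51 (adjusted p = 0.304), passed when libraries were weighted by their fit (adjusted p = 0.00968 and 0.0137), and Nkg7 also when only the day 3 groups were fitted (adjusted p = 0.0118). For the others the 95% interval of the difference, from the spread shared by all groups, ran from -0.27 to 1.01 for Cd3e, from -1.76 to 1.03 for Cd8a, from -0.71 to 0.98 for Klrd1, from -1.71 to 2.52 for Gzmb and from -1.81 to 3.30 for Prf1. With total reads as library size the median of all genes at day 3 moved to 0.20, and calls over all genes, 2234 higher and 2751 lower, became 5144 higher and 1400 lower; quantile normalization gave 2586 and 3242. Both called members kept their direction and call on both scales.

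At day 7 none of the 9 tested members differed between anti-miR106b and scrambled muscle (limma), none had an unadjusted p under 0.05, and all 10 members overlapped between the groups. Over all tested genes 0.125% were called, 11% had an unadjusted p under 0.05, and 5.02% were higher and 5.85% lower without overlap. Weighting the recovered reads with voom also called 0 members, as did each other alternative tried, leaving out single libraries included. The values ranged from -1.11 ± 0.99 for Gzmb to 0.40 ± 0.39 for Klrd1, and Cd4 stood at 0.07 ± 0.26 with a 95% interval of -0.50 to 0.63. The intervals ran from -0.96 to 0.55 for Gzma, from -1.21 to 0.64 for Nkg7 and from -0.95 to 0.33 for Cd3e. The direction for Cd4 turned to -0.12 when libraries were weighted by their fit.

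Whether the difference itself changed between the days was tested as day 7 minus day 3 of the inhibitor difference. No member passed (limma; 19% of all tested genes did), and 2 members, Cd4 and Gzma, had an unadjusted p under 0.05, against 32.8% of all tested genes. Cd4 had a change of -0.95 ± 0.37 (adjusted p = 0.0932) and Gzma one of -1.23 ± 0.50 (adjusted p = 0.102). Voom called 0 members. The count depended on the setting and on replicate 1 of scrambled day 7, the library lowest in most members. Without that library Cd4 was at -1.33 (adjusted p = 0.00185), Gzma at -1.62 (0.0120), Nkg7 at -1.58 (0.0125) and Cd3g at -2.07 (0.0234), and all 4 passed. With all libraries kept, Cd4 passed with total reads as library size (-1.17, adjusted p = 0.0417), with 1 CPM added (-0.87, 0.00791) and with library weights (-1.19, 0.00362). Gzma passed with 1 CPM added (-0.78, adjusted p = 0.0179) and with library weights (-1.49, 0.0142), and Cd3g with library weights (-2.24, 0.0132). Over all alternatives run, Cd4 ranged from -1.33 to -0.72 and Gzma from -1.62 to -0.78. On the scale of total reads the median of all genes moved to -0.22 and the calls over all genes, 1817 higher and 1239 lower, became 845 and 3404.

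**Figure D5:**
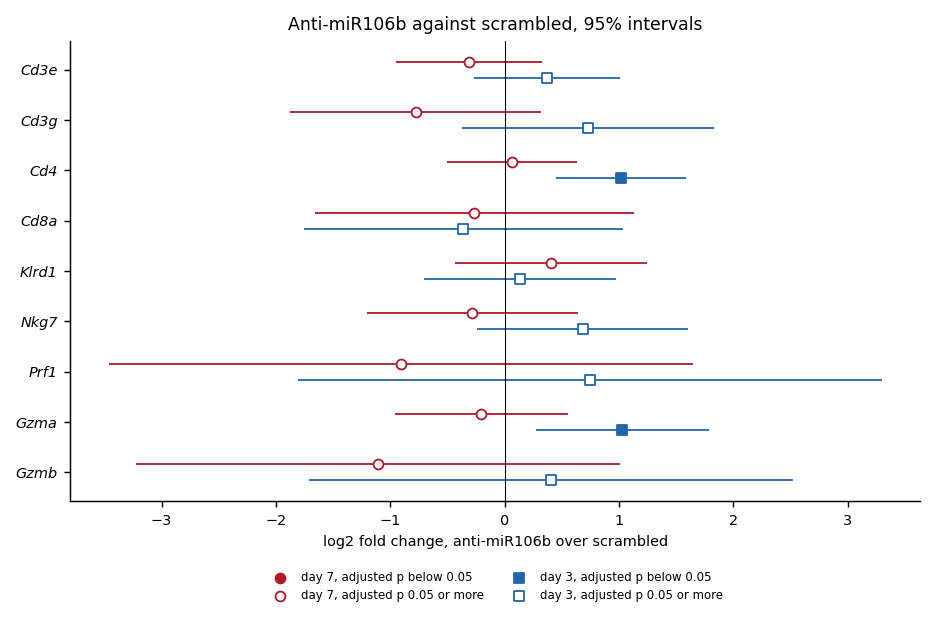
Log2 fold change of anti-miR106b over scrambled (horizontal axis) for the 9 tested members, with day 7 as circles above day 3 as squares, and bars for 95% intervals of the limma fit. The 2 filled symbols, Cd4 and Gzma at day 3, are those with an adjusted p below 0.05.

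The calls in the wider lists of T cell and NK cell genes at day 3 stand beside 13.9% higher and 17.1% lower over all tested genes, and 5.98% and 7.92% among those averaging 10 to 200 reads. Of the T cell receptor and CD3 list, 0 of 8 tested genes passed, with a median of 0.43 over its 12 genes, and of the 23 listed NK cell receptor and identity genes 0 of 17 tested passed, with a median of 0.61. Among them Klrk1, the activating receptor NKG2D, was at 0.38 ± 0.36, and Il2rb, the receptor chain shared by interleukins 2 and 15, was at 0.62 ± 0.38. Of 19 T cell signalling and identity genes 3 of 12 tested were higher: Skap1, Zap70 and Tcf7. Skap1, an adaptor that links the T cell receptor to integrins, had 46, 39 and 45 reads in anti-miR106b day 3 muscle and 9, 9 and 6 in scrambled day 3 muscle, without overlap. It had 5, 5 and 7 reads in anti-miR106b day 7 muscle and 12, 9 and 8 in scrambled day 7 muscle. Its difference was 2.19 ± 0.32 at day 3 (adjusted p = 0.000283) and changed by -2.77 ± 0.45 to day 7 (adjusted p = 0.00182), calls that stood under both other scalings and without any single library.

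Zap70, the kinase recruited by phosphorylated CD3 and zeta chains, had 122, 124 and 99 reads with anti-miR106b and 63, 59 and 60 with scrambled at day 3, a difference of 0.68 ± 0.20 (adjusted p = 0.0190). That call was lost without replicate 2 of anti-miR106b day 3 (adjusted p = 0.0678) or without replicate 2 or 3 of scrambled day 3 (0.0582 and 0.0507). Tcf7, a transcription factor of naive and memory T cells, was at 0.56 ± 0.19 (adjusted p = 0.0396), a call lost without any of the 3 anti-miR106b day 3 libraries (adjusted p = 0.0666, 0.136 and 0.0832 for replicates 1 to 3) or without replicate 2 or 3 of scrambled day 3 (0.178 and 0.0728). Among cytotoxic granule genes 1 of 7 tested rose, Gzma, and 1 fell, Gzmm. With total reads as library size 2 more granule genes passed as higher, Ctsw (1.24, adjusted p = 0.0297) and Srgn (0.52, 0.00379), which were at 1.06 ± 0.40 (adjusted p = 0.0606) and 0.33 ± 0.13 (0.0690) on the authors' scale; Srgn also passed with quantile normalization (0.0373). Gzmm, granzyme M, had 89, 81 and 58 reads with anti-miR106b and 90, 110 and 90 with scrambled at day 3, a difference of -0.59 ± 0.16 (adjusted p = 0.0139); it missed the threshold with total reads (-0.40, adjusted p = 0.0517), without replicate 3 of anti-miR106b day 3 (0.0603) and without replicate 2 of scrambled day 3 (0.0722). It was also higher at day 7 than at day 3, by 1.64 ± 0.16 with anti-miR106b and 0.87 ± 0.16 with scrambled, opposite to Gzma and Gzmb.

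Of 26 T helper, checkpoint and effector genes, 17 were tested at day 3, and 3 were higher (Lag3, Il2rg, Jak3) and 1 was lower (5 and 1 with total reads as library size). Lag3, an inhibitory receptor of activated T and NK cells, had 225, 228 and 190 reads with anti-miR106b and 121, 73 and 75 with scrambled, a difference of 1.06 ± 0.27 (adjusted p = 0.00959) that changed by -1.51 ± 0.39 to day 7 (adjusted p = 0.0154). Jak3, the kinase bound to the common interleukin receptor chain, was at 0.43 ± 0.13 (adjusted p = 0.0189), a call lost without replicate 1 or 2 of anti-miR106b day 3 (0.0747 and 0.0817) or of scrambled day 3 (0.0727 and 0.0663). Il2rg, the receptor chain common to several interleukins and found on most leukocytes, was higher by 0.96 ± 0.14 (adjusted p = 0.000276). Of 17 chemokines and receptors of T and NK cells, 13 were tested, with 2 higher and 2 lower (4 and 1 with total reads as library size). Cxcl9, a ligand of the T cell and NK cell receptor CXCR3, had 898, 794 and 675 reads with anti-miR106b and 372, 356 and 345 with scrambled at day 3, a difference of 0.90 ± 0.26 (adjusted p = 0.0165, and 0.0525 without replicate 1 of anti-miR106b day 3). Cxcl16, the ligand of CXCR6, was at 0.89 ± 0.20 (adjusted p = 0.00386), Il15ra at -0.36 ± 0.09 (adjusted p = 0.00779, and 0.180 with total reads) and Il12a at -0.77 ± 0.18 (adjusted p = 0.00484). Of 17 regulatory T cell genes 0 of 11 tested were higher and 2 were lower, Ikzf2 (Helios) at -0.78 ± 0.11 (adjusted p = 0.000239) and Il1rl1 (the interleukin 33 receptor) at -0.85 ± 0.20 (adjusted p = 0.00629). At day 7 no gene of these lists differed between anti-miR106b and scrambled muscle.

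Against day 3, the NK cell list was lower at day 7 for 14 of 17 tested genes with anti-miR106b and for 9 with scrambled, beside 39.3% and 33.3% lower over all tested genes; in scrambled muscle Tbx21 was higher (0.82 ± 0.32, adjusted p = 0.0397). Tbx21, the transcription factor T-bet, was at 0.02 ± 0.32 with anti-miR106b, and its scrambled call was lost with total reads (0.42, adjusted p = 0.290) and without replicate 3 of anti-miR106b day 3 (0.0503), replicate 2 or 3 of scrambled day 3 (0.0626 and 0.184) or replicate 3 of scrambled day 7 (0.141). Ncr1, the NKp46 receptor that defines mouse NK cells, had 7, 11 and 5 reads in anti-miR106b day 7 muscle, 5, 11 and 8 in scrambled day 7 muscle, 36, 22 and 22 in anti-miR106b day 3 muscle and 24, 24 and 22 in scrambled day 3 muscle. It fell by 1.27 ± 0.37 with anti-miR106b and by 1.45 ± 0.37 with scrambled (adjusted p = 0.00629 and 0.00346), and the inhibitor difference at day 3 was -0.08 ± 0.37.

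Markers of other cells moved in the same comparisons. General leukocyte genes were higher with anti-miR106b at day 3 for 8 of 10, with a summed level of 967 to 1083 CPM in anti-miR106b and 649 to 701 CPM in scrambled libraries, and macrophage markers for 8 of 16 (14 with total reads as library size and 10 with quantile normalization), with 4829.6 to 5236 CPM in anti-miR106b and 3463 to 3531 CPM in scrambled libraries. Both lists were lower at day 7 throughout, for 10 of 10 and 16 of 16 in each arm; macrophage markers summed to 452 to 707 CPM with anti-miR106b and 427 to 667 CPM with scrambled at day 7. The macrophage receptor gene Csf1r was at 0.48 ± 0.11 at day 3 (adjusted p = 0.00616). The day 3 calls of the leukocyte genes Cd48 and Lcp1 and of the macrophage marker Fcgr1 were lost when any single day 3 library was left out. Cd52 was lost without replicate 1 of anti-miR106b day 3, and Cx3cr1 without replicate 1 or 2 of anti-miR106b day 3 or replicate 2 or 3 of scrambled day 3. Cd53, Adgre1, Cd14, Itgam, Lyz2 and Ly6c2 gained a call without single day 7 libraries. Of 10 dendritic cell markers, 1 was higher at day 3, and the list summed to 139.5 to 155 CPM with anti-miR106b and 123 to 124 CPM with scrambled. Mature fibre markers were lower with anti-miR106b at day 3 for 11 of 12, but for 3 of 12 with quantile normalization, where 6 had a positive value. They summed to 71869 to 78334 CPM with anti-miR106b and 110662 to 131634 CPM with scrambled. They were higher at day 7 for 11 of 12 with anti-miR106b and 12 of 12 with scrambled, but with quantile normalization for 3 (2 were then lower) and 4. The day 3 call of the fibre marker Mylpf was lost when any single day 3 library was left out. That of Acta1 was lost without any of these except replicate 1 of scrambled day 3, and Myh2 gained a call without replicate 1 of scrambled day 7. No marker of these lists was at 0 reads in all libraries of a group. The part of these cells in the differences of the members was not tested.

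B cell and plasma cell markers gave 1 higher of 6 tested at day 3, with summed levels of 64.4 to 73.0 CPM with anti-miR106b and 58.9 to 71.5 CPM with scrambled. That call, Cd79b, was lost when any single day 3 library was left out. Neutrophil markers gave 0 of 5 (1 higher with total reads as library size), with 25.9 to 31.1 CPM with anti-miR106b and 15.7 to 27.2 CPM with scrambled. S100a8 and S100a9 passed at day 3 without replicate 3 of scrambled day 3 (adjusted p = 0.0197 and 0.00293, limma). Csf3r passed without replicate 2 of anti-miR106b day 7 (0.0466). Among the neutrophil markers, Ngp was at 0 reads in all anti-miR106b day 7 libraries and Ltf in all scrambled day 7 libraries. Mast cell, basophil and eosinophil markers gave 0 of 9, with 26.4 to 29.4 CPM with anti-miR106b and 23.8 to 33.6 CPM with scrambled at day 3.

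Likeness to Cd3e and Nkg7 was ranked by Pearson's r of log2 CPM over the 12 libraries, which includes the differences between groups. With the group means removed, r was 0.571 to 0.879 for the 6 genes most like Cd3e and 0.905 to 0.982 for those most like Nkg7. The 6 genes most like Cd3e were Adat1 (r = 0.904), Mcam, Zfp503, 2700046G09Rik, Usp29 and Zswim1 (r = 0.869). None of them is a listed T cell gene. The 6 most like Nkg7 were Cpne2 (r = 0.979), Hk1, Brat1, Zfp820, Itga9 and Ms4a4b (r = 0.971). For Cd4, added after its values were seen, the 6 included Clec4n (r = 0.993), which encodes the myeloid receptor dectin-2, Ifi211, P2ry13, Arl5c and H2-D1 (r = 0.991). With the group means removed, r was 0.810 to 0.929 for the 6 genes most like Cd4.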

How the data were processed

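Whole-muscle RNA was sequenced from 12 animals, 3 in each of 4 groups taken from the labels. Per the submitters' processing notes, the build was mm10 and the tools included STAR and featureCounts, the quality and trimming tools FastQC 0.72 and Trim Galore 0.4.3.1, and the R packages limma 3.34.9 and edgeR 3.20.9; strand use was not given in the sources used here. The deposited table holds log2 CPM values of 28116 symbols, made by the authors with a prior of 0.25 reads on average and library sizes that include a size factor. Whole reads were recovered from these values (within 0.001 of a whole number) and gave 28857739 to 42825246 reads per library. Members with few reads are imprecise. Poisson intervals cover counting error only, and limma intervals use the spread between animals.

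Symbols averaging at least 10 reads (16053) were tested on the deposited log2 CPM with limma 3.58.1 (R 4.3.3), with a trend in the prior variance, 4 group means and all 12 libraries. Tests were two-sided, and p-values were adjusted by Benjamini-Hochberg over all symbols tested. The fit was tried on simulated data in which every gene had the same dispersion between animals. That run does not cover the wider spread of members with few reads. With 3 animals against 3, an exact permutation test cannot go below p = 0.1. All members were described. From each other list the genes named are up to 4 with the smallest p at day 3 between inhibitors, and the 6 genes most like Cd3e and Nkg7; Cd247, Trac, Trbc2, Ncr1, Klrk1 and the genes most like Cd4 were added after their values were seen. Some genes these rules name are not reported here. The members and lists were chosen with earlier results of these data known. Replicate numbers did not pair the libraries. Alternatives were other filters, added CPM, scalings, weights, variance priors, a replicate block and leaving out each library. The design text once gives the later time as a different day from the labels; the labels' day 7 is used.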

Additional observations from a re-analysis of the deposited data

How the results depend on the processing

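Of the alternatives for single members other than leaving out a library, 446 kept direction and side of the threshold, 9 lost a call, 11 gained one and 5 reversed. Reversed were Klrd1 (-0.00799, 1 CPM added) and Cd8a (-0.12, total reads; -0.51, library weights) in the change of the inhibitor difference, Cd3e at day 7 against day 3 with anti-miR106b (-0.21, total reads) and Cd4 at day 7 between inhibitors (-0.12, library weights). Members called at day 3 between inhibitors were 1 with no filter or no variance trend and 4 with library weights, against 2. In the change they were 2 with 1 CPM added, 1 with total reads and 3 with library weights, against 0. At day 7 against day 3 with anti-miR106b they were 5 with at least 1 CPM in at least 3 libraries, against 8. Under that filter Cd3g, Cd8a and Prf1 were not tested, because each stayed under 1 CPM in every library, and no tested member lost its call. Genes called at day 7 between inhibitors, 20, became 9 with that filter, 11 and 37 with 0.1 and 1 CPM added, 9 with voom, 40 with library weights, 7 without trend and 2 with only those groups. At day 3 they were 8858 with library weights and 7554 with only those groups, against 4985, and in the change 5122 with library weights, against 3056.

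Leaving out 1 library, single members kept their verdict 500 times, lost a call 19, gained one 4 and reversed 17 times. Genes called ranged over 3294 to 5652 at day 3, 0 to 424 at day 7, 1907 to 4502 for the change, 11273 to 12100 for the days with anti-miR106b and 8887 to 10186 with scrambled; members called over 1 to 2, 0, 0 to 4, 6 to 8 and 5 to 7 in that order. The day 7 count was 424 without replicate 1 of scrambled day 7, 70 without replicate 2 of anti-miR106b day 7 and 0 without replicate 2 of scrambled day 7. Reversals at day 7 between inhibitors fell within -0.31 to 0.30 for Cd4, -1.20 to 0.28 for Cd8a, -0.59 to 0.17 for Gzma, -2.21 to 0.28 for Gzmb, -2.08 to 0.90 for Prf1, -0.89 to 0.29 for Nkg7 and -0.14 to 0.94 for Klrd1, and in the change within -0.83 to 0.64 for Cd8a, -2.82 to 0.15 for Prf1 and -0.27 to 0.80 for Klrd1. The cause was not tested.

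Same-numbered libraries did not deviate together, and with a replicate block 2 members were called at day 3 and 0 at day 7 between inhibitors, 0 in the change, 8 between the days with anti-miR106b and 7 with scrambled. Depth limits Cd3g, Cd8a, Gzmb, Prf1 and Foxp3 at day 7, which had at most 12 reads in any library.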
